A study of Mus musculus with 2 samples.

Results

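The genes described here are the 10 genes of MHC class I and antigen processing chosen by symbol for their role: H2-K1, H2-D1, B2m, Tap1, Tap2, Tapbp, Psmb8, Psmb9, Psmb10 and Nlrc5. They are 10 of 27998 gene rows, and each had a row in both libraries. The study measured single cells of the mouse RPE-choroid complex, the pigmented epithelium behind the retina with its vascular bed, by droplet sequencing on the 10x platform. One library came from C57BL/6J mice (given as C57BL/6 in the genotype label) injected into a vein with NaIO3, an oxidant toxic to the retinal pigment epithelium (RPE), at 20 mg/kg, and 1 from mice of the same strain given the same volume of PBS. Both treatments lasted 7 days, and the eyes of 6 mice were pooled per library. Hexagonal brown cells were picked under a microscope, so the share of each cell type reflects that choice as well as the tissue. The labels give neither age nor sex.

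MHC class I molecules show short peptides from inside the cell to CD8 T cells. The heavy chain (H2-K1, H2-D1) pairs with the light chain B2m. Peptides are cut by the proteasome, whose catalytic subunits Psmb5, Psmb6 and Psmb7 can be replaced by the immunoproteasome subunits Psmb8, Psmb9 and Psmb10. Tap1 and Tap2 form the pump that moves peptides into the endoplasmic reticulum, and Tapbp (tapasin) bridges the pump to the empty class I molecule. Nlrc5 is the transactivator of class I promoters. Interferons raise most of these genes in many cell types. The RPE forms the outer blood-retina barrier and is part of the immune privilege of the eye.

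Of the 10 genes, 7 lie on chromosome 17 in the GENCODE M21 annotation of GRCm38. Psmb9 (chr17:34181987-34187764, minus strand), Tap1 (chr17:34187553-34197225, plus strand), Psmb8 (chr17:34197721-34201454, plus strand) and Tap2 (chr17:34203527-34216321, plus strand) stand side by side within 34335 bases. Psmb9 and Tap1 point away from each other and share 212 exonic bases at their starts. H2-K1 is at chr17:33996017-34000347 on the minus strand, H2-D1 at chr17:35262730-35267499 and Tapbp at chr17:33915899-33929292, both on the plus strand. B2m is at chr2:122147686-122153083 and Nlrc5 at chr8:94434356-94527272, both on the plus strand, and Psmb10 is at chr8:105935735-105938444 on the minus strand. H2-K1 and H2-D1 are close relatives of each other and of the H2-Q and H2-T genes, so reads that fit several of them make the split between these genes uncertain. Tap2, Psmb8, Tapbp and Nlrc5 share exonic bases with a noncoding gene on the other strand, which adds doubt where strand was not used in counting. Tapbp also shares exonic bases with Zbtb22 on its own strand, which strand cannot resolve.

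The stretches before the transcription starts of H2-K1 and B2m are shown because the heavy and light chain had different ratios between the libraries in the RPE. RefSeq promoter windows (GRCm38.p6) were found for 8 of the 10 genes, and not for Tap2 and Nlrc5. Capitals mark every match, on either strand, to 5 motifs: AANNGAAA (the core bound by interferon regulatory factors), the NF-kB motif, TGACG (CREB-like), CCAAT, and TTCNNNGAA (GAS). The H2-K1 window is chr17:34000348-34000547, minus strand, and the B2m window is chr2:122147487-122147685, plus strand.
H2-K1: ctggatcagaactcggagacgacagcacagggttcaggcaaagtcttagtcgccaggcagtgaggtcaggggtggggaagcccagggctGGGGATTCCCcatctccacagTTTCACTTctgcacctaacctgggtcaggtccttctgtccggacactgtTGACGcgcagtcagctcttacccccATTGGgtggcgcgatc
B2m: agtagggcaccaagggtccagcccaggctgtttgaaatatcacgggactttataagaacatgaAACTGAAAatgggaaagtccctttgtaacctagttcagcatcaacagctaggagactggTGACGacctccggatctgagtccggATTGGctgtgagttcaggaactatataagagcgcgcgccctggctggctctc

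Shorter stretches of 30 bases are shown for the paired elements of the heavy chain genes, and for Tap1. The H2-K1 stretch (chr17:34000429-34000458, minus strand) and the H2-D1 stretch (chr17:35262923-35262952, plus strand) were identical at 29 of 30 bases and hold the NF-kB and interferon regulatory factor motifs. The Tap1 stretch (chr17:34187458-34187487, plus strand) lies before the RefSeq start of Tap1, between it and the RefSeq start of Psmb9 226 bases away.
H2-K1: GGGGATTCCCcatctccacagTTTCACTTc
H2-D1: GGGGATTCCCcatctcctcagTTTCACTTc
Tap1: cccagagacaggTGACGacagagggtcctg
Within the 200 bases before the start, AANNGAAA was present in 3 of the 8 genes (H2-K1, H2-D1 and B2m) against 17.2% of 27025 promoters. The NF-kB motif was present in 2 (H2-K1 and H2-D1) against 1.18%, TGACG in 5 (H2-K1, H2-D1, B2m, Tap1 and Psmb9) against 15.8%, CCAAT in 5 (H2-K1, H2-D1, B2m, Tapbp and Psmb9) against 30.0%, and TTCNNNGAA in 1 (Psmb8) against 5.62%. The 200 bases of H2-D1, Tap1, Tapbp, Psmb8 and Psmb9 are all exonic in GENCODE, whose gene models begin further upstream than the RefSeq starts of H2-D1 (364 bases), Psmb9 (434), Psmb8 (474) and Tapbp (3579), so these windows are not the promoters of the longer models. The windows of Tap1 and Psmb9 overlap, and their TGACG is the same site read on opposite strands, so it is counted for both genes. The motifs were chosen with these windows in view, and a match is a description of letters only.

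The PBS library had 51055592 UMIs over 4618 barcodes and the NaIO3 library 51168520 over 4058, and 4218 and 3812 cells were kept. The libraries shared 24 barcodes. Cells fell into 34 clusters, named "-like" from marker genes after clustering without the 10 genes. RPE-like cells numbered 3111 in PBS and 2240 in NaIO3, surface epithelium-like cells 74 and 695, macrophage-like cells 104 and 476, endothelial-like cells 42 and 13, and mural-like cells 67 and 2. These names were rebuilt here and may differ from those of the authors. Surface epithelium belongs to the front of the eye and stood in a preparation meant to hold RPE and choroid. RPE-like clusters 0 and 1 were led by genes that include Rpe65 and Rgr of the visual cycle. The RPE-like cells of PBS lay in clusters 0 and 2 and those of NaIO3 in clusters 1, 11, 15, 24 and 27, with 1 PBS cell in cluster 11, so cluster and library cannot be told apart there. Counts were summed over each class and library and given as CPM, a gene's UMIs scaled to the total UMIs of that class in that library. With 1 library per treatment there is no replicate and no test, and every interval is a 95% interval for counting error alone, which does not cover differences between mice or preparations. UMIs of 1 cell are not independent samples of the treatment.

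In the RPE-like cells the heavy chains, Tap1, both chromosome 17 immunoproteasome subunits and Nlrc5 were at higher levels in the NaIO3 library, while B2m, Tap2, Tapbp and Psmb10 differed less. The plots of levels and of ratios show this by gene. H2-K1 stood at 33.3 CPM in PBS (interval 31.5 to 35.2) and 107 CPM in NaIO3 (103 to 111), a ratio of 3.22 (3.01 to 3.44). For H2-D1 the level was 20.7 CPM without and 127 CPM with NaIO3, which is a ratio of 6.15 (5.69 to 6.65). The intervals of the libraries do not overlap for either heavy chain. The light chain B2m went from 559 CPM (552 to 567) to 767 CPM (756 to 777), which is a ratio of 1.37 (1.34 to 1.40). The light chain thus had a smaller ratio than both heavy chains it pairs with.

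**Figure D1:**
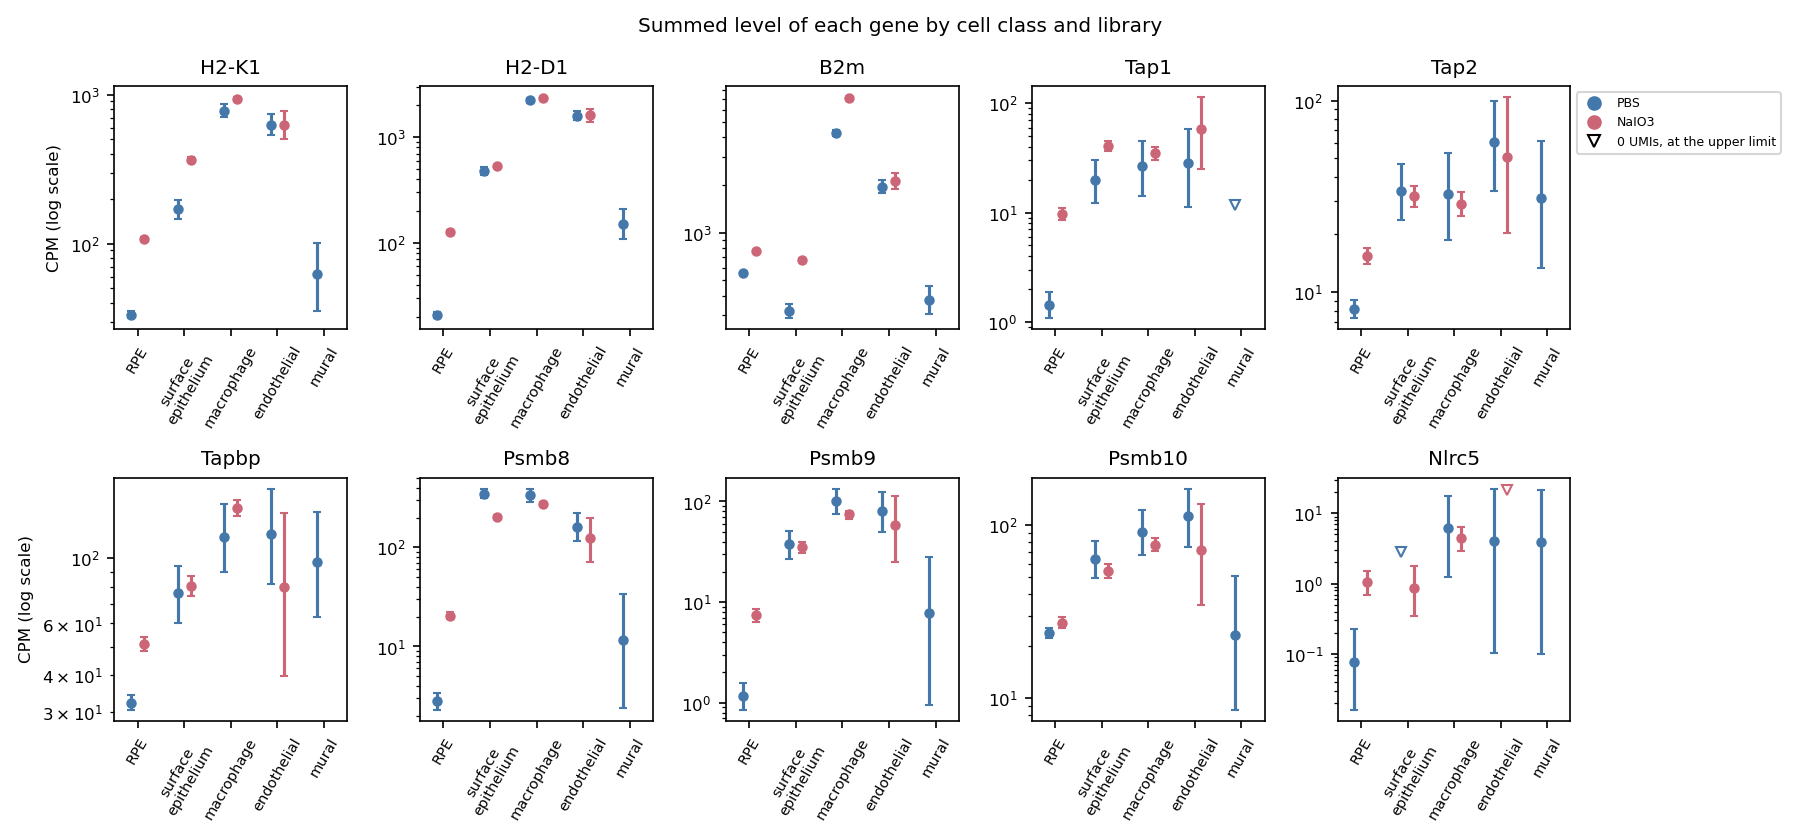
Level of each gene in CPM (log axis) in 5 cell classes, blue for the PBS and red for the NaIO3 library, with exact Poisson 95% intervals. Open triangles mark 0 UMIs at the limit of 3 counts, mural-like cells are shown for PBS only, and H2-K1 in RPE-like cells lies at 33.3 CPM in PBS and 107 CPM in NaIO3.

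Among the transport genes, Tap1 had 55 UMIs in PBS and 260 in NaIO3 (1.43 and 9.67 CPM), which is a ratio of 6.77 (5.04 to 9.23). For its partner Tap2 the levels were 8.18 and 15.4 CPM, which is a ratio of 1.88 (1.62 to 2.19). For Tapbp they were 32.3 and 51.1 CPM, which is a ratio of 1.58 (1.47 to 1.71). Of the pump's chains, Tap1 had the larger ratio, with intervals that do not meet.

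Of the immunoproteasome subunits, Psmb8 had 108 UMIs in PBS and 550 in NaIO3 (2.80 and 20.5 CPM), which is a ratio of 7.29 (5.92 to 9.05). For Psmb9 there were 45 and 199 UMIs (1.17 and 7.40 CPM), which is a ratio of 6.33 (4.56 to 8.96). Psmb10, which lies apart on chromosome 8, went from 23.9 to 27.3 CPM, which is a ratio of 1.15 (1.04 to 1.26). The subunits they replace stood close to 1: Psmb5 had a ratio of 1.08 (1.05 to 1.13), Psmb6 0.936 (0.907 to 0.967) and Psmb7 0.867 (0.829 to 0.908). Nlrc5 had 3 UMIs in PBS and 28 in NaIO3, giving a ratio of 13.4 (4.13 to 68.7) that rests on few counts.

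In all, 6 of the 10 genes were at least 2-fold higher in NaIO3 RPE-like cells, against 12.2% of the 13428 genes with at least 20 counts in 1 library, and none was 2-fold lower, against 2.11%. Their median log2 ratio was 2.15 against 0.19 over all those genes. TMM scaling, which centres the bulk of genes between libraries, lowers every log2 ratio in this class by 0.20. Summed over the 10 genes, the level was 683 CPM in PBS and 1133 CPM in NaIO3, a ratio of 1.66 (1.63 to 1.69), and B2m supplied the larger part of that sum in both libraries. In cells thinned to 4000 UMIs, the median was 3 UMIs of these genes per cell in PBS and 4 in NaIO3. Another random thinning of the same PBS cells gave a median of 2, so the PBS value varied with the draw. Most single cells thus hold too few for a call.

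**Figure D2:**
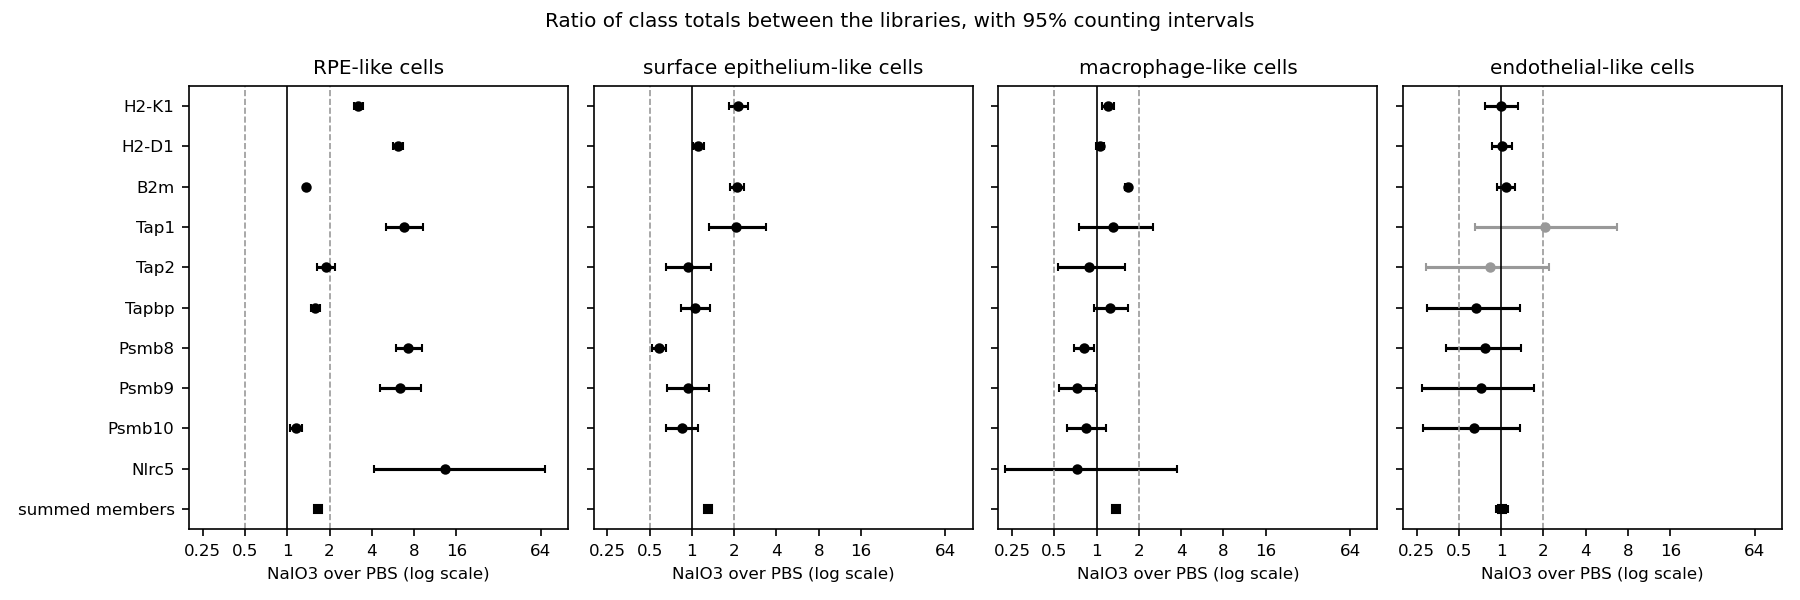
Ratio of NaIO3 over PBS class totals for each gene and for the 10 genes summed (log axis) in 4 cell classes, with exact 95% counting intervals, grey where neither library had 20 counts and dashed lines at 2-fold. Genes at 0 UMIs in 1 library are not drawn, and in RPE-like cells 6 genes lie beyond the upper dashed line.

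RNA that is free in the suspension can enter any droplet, and markers of other cell types moved with the class I genes. In RPE-like cells the 10 macrophage markers summed to 204 CPM in PBS and 1573 CPM in NaIO3, none of them at 0, and the 12 surface epithelium markers to 279 and 1953 CPM. These were 0.504% and 3.66% of the level in macrophage-like cells, and 0.728% and 3.13% of the level in surface epithelium-like cells. Single markers ranged widely around these sums: in PBS from 0.149% to 17.2% of the macrophage-like level and from 0.129% to 11.6% of the surface epithelium-like level, and in NaIO3 from 2.51% to 47.4% and from 2.32% to 7.91%. Applying the summed shares to the 10 genes gives a rough level for such RNA, with the spread between markers left out. That level counts macrophage-like and surface epithelium-like cells as sources only. Other sources were left out, among them 213 unnamed cells found in NaIO3 only, with Cdkn2a or Cdkn2b among their leading genes and B2m at 2459 CPM. For H2-D1 it came to 14.7 CPM of the 20.7 measured in PBS and 103 CPM of the 127 measured in NaIO3, and for Psmb8 to 4.24 CPM against 2.80 measured in PBS and 16.3 CPM of 20.5 in NaIO3. The computed level thus covered 81.1% of H2-D1 and 79.9% of Psmb8 in NaIO3, and exceeded the Psmb8 level in PBS. For the other genes it covered less in NaIO3: 51.6% of Psmb9, 42.7% of H2-K1, 36.8% of B2m, 26.4% of Tap1, 18.2% of Nlrc5, 16.6% of Psmb10, 15.5% of Tapbp and 13.3% of Tap2.

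The level left after that deduction in NaIO3 was 2.18 times that in PBS for H2-K1, 6.18 times for Tap1, 1.72 times for Tap2 and 1.39 times for Tapbp. For Psmb10 it was 0.99 times and for B2m 0.90 times the PBS level, so the B2m ratio turned to below 1. For the summed genes it was 1.05 times. It was 4.04 times for H2-D1, 9.41 times for Psmb9 and 18.1 times for Nlrc5, over PBS remainders of 5.94, 0.38 and 0.047 CPM. Psmb8 had no PBS remainder and so no ratio. A second deduction, with the share of the library mean in place of the class level, gave 0.975 for B2m, 1.17 for the summed genes, 2.50 for H2-K1 and 7.59 for Tap1.

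Rod-like cells, the photoreceptors lying against the RPE, also differed between the libraries. H2-K1 had 3 UMIs in 37 PBS rod-like cells and 15 in 20 NaIO3 rod-like cells, a 4.98-fold ratio (1.41 to 26.8). H2-D1 had 6 and 34, a 5.64-fold ratio (2.34 to 16.4), and the summed genes a 3.17-fold ratio (2.23 to 4.60). The heavy chain ratios of the RPE-like cells thus lay within the intervals of the rod-like cells, and the part of free RNA in either was not tested beyond these deductions. Macrophage markers summed to 92.5 CPM in PBS rod-like cells (5 of 10 at 0) and 1156 CPM in NaIO3 rod-like cells (1 of 10 at 0), and surface epithelium markers to 121 CPM (4 of 12 at 0) and 1897 CPM (1 of 12 at 0). After thinning to 4000 UMIs, H2-D1 was seen in 39.2% of NaIO3 RPE-like cells (37.2 to 41.2; 71.1% unthinned) and in 55.0% of 20 rod-like cells (31.5 to 76.9), with median depths of 9395 and 7629.5 UMIs. The NaIO3 shares of RPE-like and rod-like cells were 34.1% and 30.0% for H2-K1, 8.08% and 10.0% for Psmb8, and 3.39% and 5.0% for Tap1 (unthinned in RPE-like cells 63.2%, 18.97% and 9.29%). The H2-D1, Psmb8 and Tap1 shares were no higher than the rod-like shares and are not read as shares of expressing cells, and that of H2-K1 lay within the rod-like interval (11.9 to 54.3). The rod-like Tap1 share is 1 cell of 20 (interval 0.127 to 24.9), too few to set a background for that gene. B2m was seen in 91.7% of RPE-like cells (98.6% unthinned) and 50.0% of rod-like cells (27.2 to 72.8), so the RPE-like share lay above the rod-like interval. All these rod-like shares rest on 20 cells. How much of them is free RNA was not tested.

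**Figure D3:**
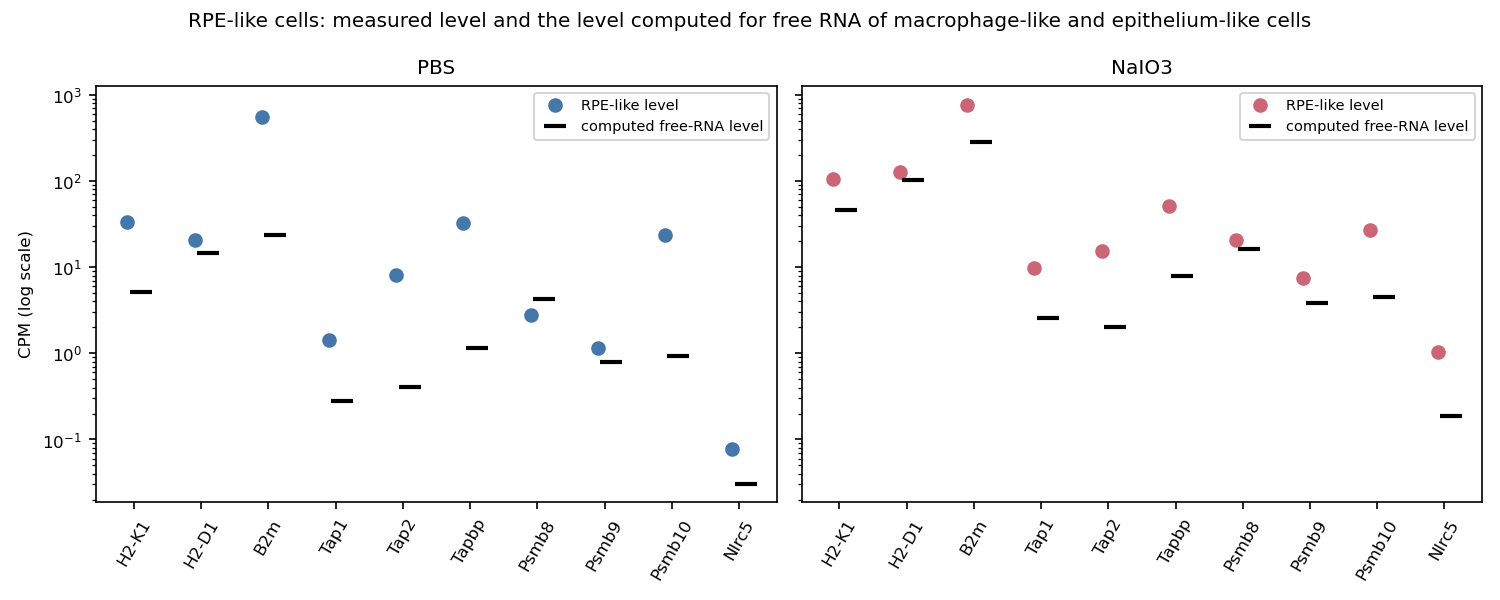
Measured level of each gene in RPE-like cells (circles, CPM, log axis) and the level computed for free RNA of macrophage-like and surface epithelium-like cells (bars) in the PBS and the NaIO3 library. H2-D1 at 127 CPM and Psmb8 at 20.5 CPM in NaIO3 lie just above their computed levels of 103 and 16.3 CPM.

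Among the NaIO3 RPE-like cells, 113 (5.04%) formed clusters 15 and 24, whose leading genes included at least 5 interferon effectors such as Ifit1, Ifit3 and Rsad2. These clusters were drawn from the same cells, so what follows describes them and tests nothing. Transport and immunoproteasome genes stood higher in them, while the intervals of the heavy and light chains held 1. Tap1 stood at 53.6 CPM against 7.16 in the other NaIO3 RPE-like cells, a ratio of 7.49 (5.67 to 9.81). The ratio was 3.19 (2.41 to 4.18) for Tap2, 3.19 (2.50 to 4.03) for Psmb8, 3.60 (2.41 to 5.23) for Psmb9 and 2.53 (2.01 to 3.15) for Psmb10. Nlrc5 had 11 UMIs in these cells and 17 in all the others, a ratio of 11.3 (4.79 to 25.6), and Tapbp had a ratio of 1.63 (1.33 to 1.97).

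H2-K1 stood at 109 CPM in the interferon-led cells and 107 CPM in the others, a ratio of 1.01 (0.857 to 1.19). H2-D1 stood at 127 CPM in both, a ratio of 0.999 (0.857 to 1.16), and B2m had a ratio of 1.06 (0.996 to 1.12). So 6 of the 10 genes were at least 2-fold higher, against 3.63% of 12819 genes, and the 3 genes whose products make up the surface molecule were not among them. The interferon-led cells held 5.41% of the UMIs of NaIO3 RPE-like cells, 30.0% of the Tap1 UMIs and 39.3% of the Nlrc5 UMIs, but 5.48% of the H2-K1 UMIs. Macrophage markers summed to 1620 CPM in the interferon-led cells and 1570 CPM in the other NaIO3 RPE-like cells, with none of the 10 at 0 in either, and surface epithelium markers to 1914 and 1955 CPM, with none of the 12 at 0.

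The smaller cluster 24, with 45 cells, held 60 of the 78 Tap1 UMIs. Tap1 stood at 106 CPM there (80.8 to 136) and at 20.2 CPM in cluster 15, which has 68 cells. Psmb8 stood at 118 and 20.2 CPM, Psmb10 had 61 and 32 UMIs, and Psmb9 stood at 54.7 CPM (31 UMIs) and 3.37 CPM (3 UMIs). Cluster 15 was thus close to the remaining RPE-like cells in Psmb8 and Psmb9, where Psmb8 stood at 18.3 CPM and Psmb9 at 6.49 CPM. H2-K1 was 134 CPM (106 to 168) in cluster 24 and 92.2 CPM (73.3 to 114) in cluster 15, with intervals that overlap. B2m was 930 CPM (852 to 1013) in cluster 24, above the 764 CPM (754 to 775) of the other NaIO3 RPE-like cells, and 731 CPM (676 to 789) in cluster 15, so the level of the pooled clusters hides a difference between them.

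**Figure D4:**
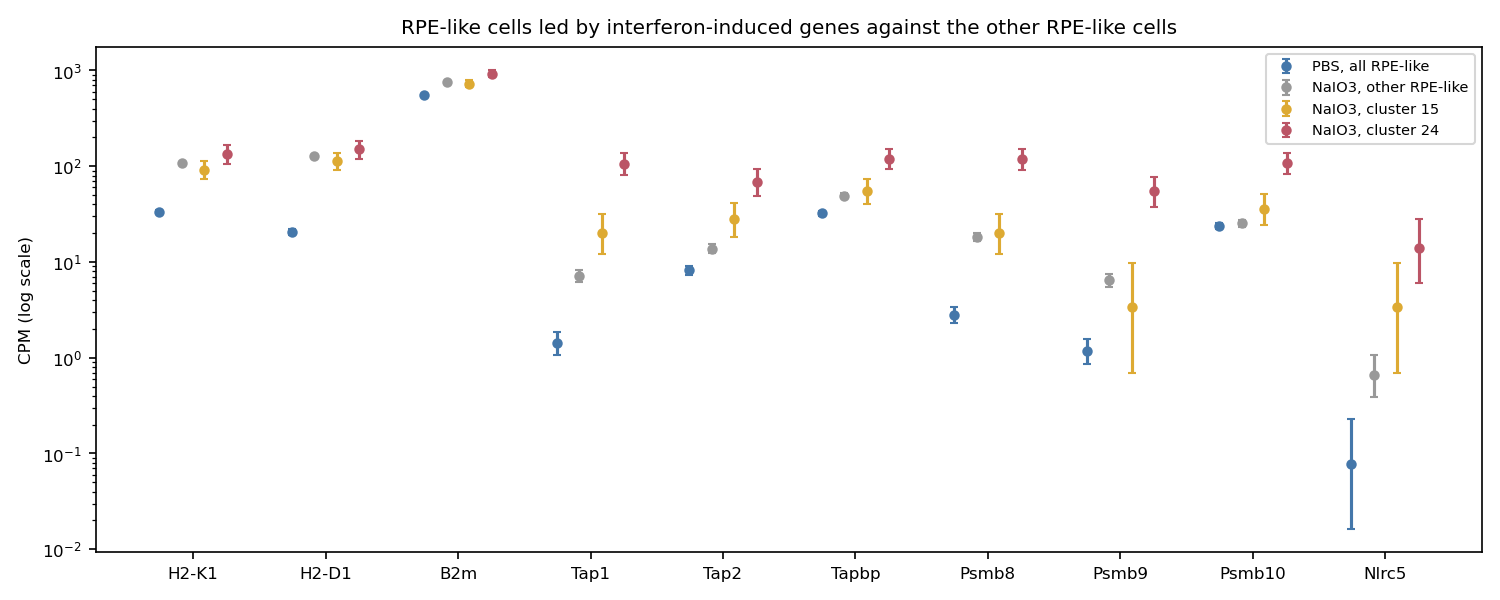
Level of each gene (CPM, log axis, exact Poisson 95% intervals) in PBS RPE-like cells, in NaIO3 RPE-like cells outside the interferon-led clusters, and in clusters 15 and 24. Tap1 stands at 7.16 CPM in the other NaIO3 cells, 20.2 in cluster 15 and 106 in cluster 24. Among these NaIO3 groups H2-K1 and H2-D1 differ less, and in PBS they stand lower, at 33.3 and 20.7 CPM.

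With the interferon-led cells left out, the NaIO3 over PBS ratio in RPE-like cells was 5.01 for Tap1 (3.69 to 6.90), 1.68 for Tap2, 6.52 for Psmb8, 3.21 for H2-K1 and 6.15 for H2-D1. Psmb10 went to 1.06 (0.955 to 1.17), an interval that holds 1. Of 9 genes with at least 20 counts 5 were then at least 2-fold higher, against 11.9% of 13389 genes, and none lower, against 2.11%. A group of 103 NaIO3 RPE-like cells that also carried cell division genes such as Top2a, cluster 11, had the highest heavy and light chain levels of the RPE-like clusters. H2-K1 stood at 251 CPM there and B2m at 1411 CPM, against 94.3 and 709 CPM in cluster 1, which holds 1997 of the NaIO3 RPE-like cells. Tap1 was 9.0 CPM in cluster 11 and 6.9 CPM in cluster 1, with intervals that overlap. In the pigment-led RPE-like clusters (870 PBS and 130 NaIO3 cells) 7 of 9 genes were at least 2-fold higher, against 10.4% of 10665 genes. None was lower, against 3.07%, and the ratio was 5.33 for H2-K1 (4.67 to 6.10) and 2.33 for B2m (2.23 to 2.44). Cluster 2 supplied 869 of these PBS cells, and cluster 11, with its cell division genes, 103 of these NaIO3 cells. These ratios thus compare different clusters, and cluster and library cannot be told apart here. In the pigment-led clusters macrophage markers summed to 223 CPM in PBS and 1404 CPM in NaIO3 (none of 10 at 0). Surface epithelium markers summed to 269 CPM (1 of 12 at 0) and 1917 CPM (none at 0). Of the T cell coreceptor that reads class I, Cd8b1 had 5 UMIs in PBS and 20 in NaIO3 there and Cd8a 1 and 11, and the part of such cells in these values was not tested. The 296 PBS cells of cluster 4, which carry RPE markers and haemoglobin RNA and were given no name, stood at 661 CPM for the summed genes, near the 683 CPM of the PBS RPE-like cells.

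Around the 10 genes, the fixed lists gave a partial picture of the same machinery in RPE-like cells. Of 6 peptide loading and trimming genes, 2 were at least 2-fold higher in NaIO3, the chaperone Calr (2.06) and the disulfide isomerase Pdia3 (2.21), both also general chaperones of the endoplasmic reticulum, and none was lower, where 12.2% of all genes tested were higher and 2.11% lower. None of 15 proteasome core and activator genes was past 2-fold. Of 10 other class I heavy chains with at least 20 UMIs, 6 were at least 2-fold higher, against 12.2% of all genes. Among them were H2-T23 (4.84, 3.70 to 6.40), H2-Q4 (4.55, 3.30 to 6.36) and H2-Q6 (3 UMIs in PBS and 27 in NaIO3). Of 17 genes that signal to class I promoters, 4 were higher, against 12.2% of all genes. They include the transcription factor Irf1 (3.22, 2.54 to 4.10) and the feedback inhibitor Socs3 (1.12 and 3.35 CPM). Free RNA was not deducted for the genes of these lists, and its part in these ratios was not tested. In NaIO3, H2-T23 stood at 8.92 CPM in RPE-like cells, 168 CPM in macrophage-like cells and 68.0 CPM in surface epithelium-like cells. For Irf1 these levels were 8.52, 20.7 and 87.5 CPM, and for Socs3 3.35, 24.2 and 34.9 CPM. In the interferon-led cells, the feedback inhibitor Socs1 stood 18.0 times above the other NaIO3 RPE-like cells, Stat2 8.20 times, H2-T22 5.14 times, H2-Q4 4.81 times, H2-T23 4.25 times, and the proteasome activator Psme2 2.28 times. These are among the highest genes of their lists, where 3.63% of all genes tested were at least 2-fold higher. Others of the same lists stood near or below 1, such as Ifngr2 (0.535, 0.274 to 0.945), Hfe (0.734), Jak1 (0.967) and Psme3 (1.03). The ligands themselves were scarcely sampled: Ifng had 2 UMIs in all kept PBS cells and 5 in all kept NaIO3 cells.

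Within each library, every immunoproteasome subunit made up less of its catalytic pair in RPE-like cells than in macrophage-like or surface epithelium-like cells. The plot of pair shares shows this. In PBS RPE-like cells Psmb8 made up 1.59% of the UMIs of Psmb8 and Psmb5 together (exact interval 1.30 to 1.91), and in NaIO3 9.77% (9.01 to 10.6). Psmb9 made up 0.481% and 3.17% of its pair with Psmb6, and Psmb10 15.6% and 19.6% of its pair with Psmb7. The level computed for free RNA was 151% of the Psmb8 level in PBS and 79.9% in NaIO3. For Psmb9 it was 67.4% and 51.6%. The part of free RNA in the RPE-like shares was not tested. In macrophage-like cells the Psmb8 share was 69.6% in PBS and 65.6% in NaIO3, and in surface epithelium-like cells it was 71.3% and 56.3%. The UMIs of a pair are not protein, and genes of unequal length and end sequence are not sampled alike.

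**Figure D5:**
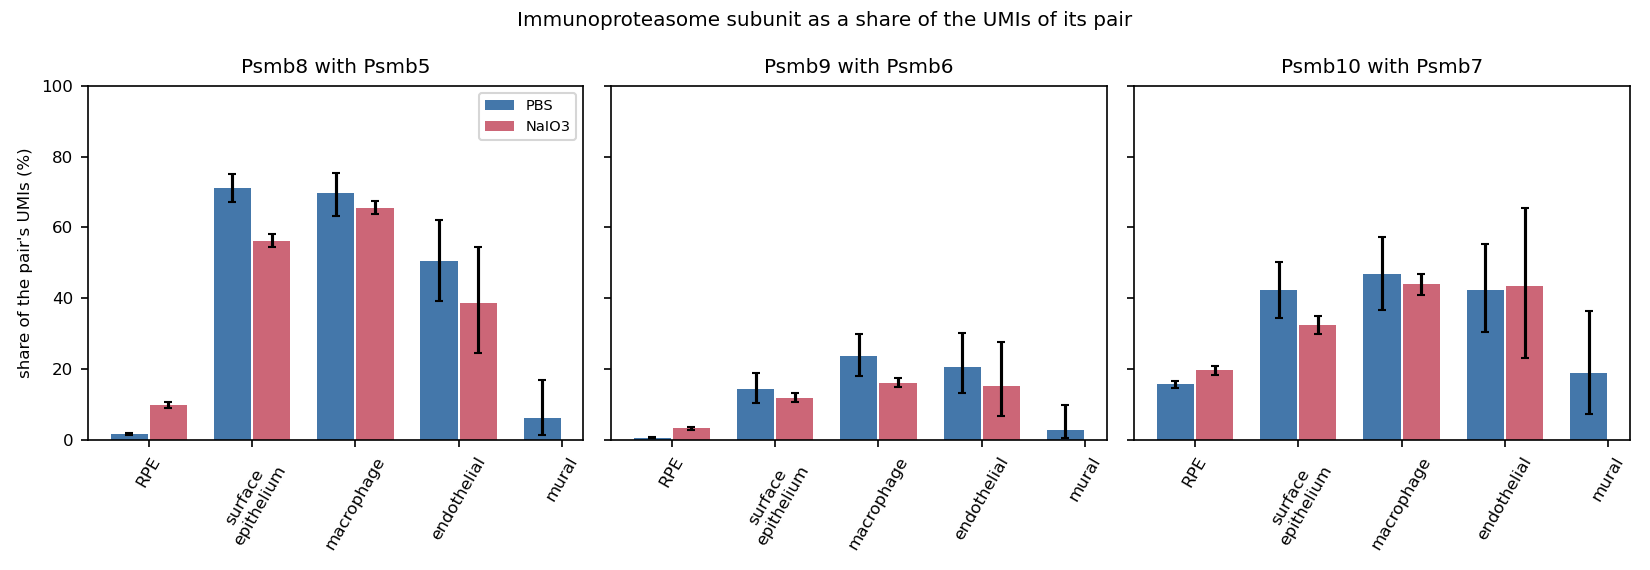
Immunoproteasome subunit as a percentage of the UMIs of its catalytic pair in 5 cell classes, blue for PBS and red for NaIO3, with exact Clopper-Pearson 95% intervals and the axis from 0 to 100. For the Psmb8 pair the RPE-like bars stand at 1.59% and 9.77% and the macrophage-like bars at 69.6% and 65.6%.

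In surface epithelium-like cells, H2-K1, B2m and Tap1 were higher in the NaIO3 library and Psmb8 was lower. H2-K1 stood at 171 CPM in PBS and 366 CPM in NaIO3, a ratio of 2.14 (1.84 to 2.50). B2m stood at 321 and 671 CPM, a ratio of 2.09 (1.87 to 2.34). Tap1 had 21 and 328 UMIs (19.7 and 40.7 CPM), which is a ratio of 2.06 (1.33 to 3.38). Psmb8 stood at 349 CPM in PBS and 202 CPM in NaIO3, a ratio of 0.580 (0.518 to 0.650). H2-D1 stood at 477 and 531 CPM, a ratio of 1.11 (1.01 to 1.22), which is below 1 with free RNA of the RPE deducted (0.881) and within cluster 3 (0.936). The intervals of Tap2, Tapbp, Psmb9 and Psmb10 held 1, and Nlrc5 had 0 UMIs in PBS, which allows up to 2.82 CPM, and 7 in NaIO3.

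In this class 3 of 9 genes with at least 20 counts were at least 2-fold higher, against 10.3% of 10858 genes, none was 2-fold lower, against 5.37%, and the median log2 ratio was 0.07 against 0.04. The sum went from 1549 to 2013 CPM, a ratio of 1.30 (1.24 to 1.37). The PBS library supplied 74 of these cells, 56 of them in cluster 3 (led by Krt6b and Krt16), while clusters 7 (led by Krt14) and 9 (led by Krt4 and Krt15) held 139 and 122 NaIO3 cells. Within cluster 3 the ratio was 1.79 for H2-K1 (1.51 to 2.12), 1.75 for B2m (1.53 to 2.01), 2.18 for Tap1 (1.29 to 3.97) and 0.517 for Psmb8 (0.458 to 0.584), and 1.07 for the sum. Within cluster 7, with 10 PBS cells, Psmb8 went the other way, from 5 UMIs to 216, a ratio of 3.07 (1.30 to 9.56). Macrophage markers summed to 565 CPM in the PBS cells of the class and 1427 CPM in the NaIO3 cells, none at 0, and their part in the ratios was not tested. Of the class II list 5 of 6 measured genes were at least 2-fold lower, where 5.37% of all genes were lower and 10.3% higher. Among the 5 were Cd74, the class II invariant chain (0.120), H2-Eb1 (0.149) and H2-Aa (0.193). The remaining gene, the class II loading chaperone chain H2-DMa, was higher, with 1 UMI in PBS and 48 in NaIO3 (6.35, 1.09 to 256). In macrophage-like cells Cd74 itself stood at 9466 CPM in PBS and 448 CPM in NaIO3. The part of free RNA of those cells in the class II ratios was not tested. Irf1, which was picked out after its value was seen, stood at 0.551 of its PBS level here (0.466 to 0.656), which is not past 2-fold. Other genes of the signalling list went the other way, where 10.3% of all genes were at least 2-fold higher. Among them were Socs3 (7.43, 3.15 to 23.1), Irf9 (2.05, 1.35 to 3.28) and Stat2 (2.53, 1.20 to 6.42). Irf1 thus does not stand for that list.

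The macrophage-like cells held higher H2-D1 and B2m levels than the RPE-like, surface epithelium-like and endothelial-like cells of the same library, and in PBS the H2-K1 interval overlapped that of the endothelial-like cells. B2m stood at 4280 CPM in PBS and 7128 CPM in NaIO3, a ratio of 1.67 (1.59 to 1.74). H2-K1 stood at 779 and 939 CPM, a ratio of 1.21 (1.09 to 1.34), and H2-D1 at 2232 and 2362 CPM, a ratio of 1.06 with an interval that holds 1. Psmb8 stood at 336 and 273 CPM, a ratio of 0.812 (0.692 to 0.959), and Psmb9 at 102 and 74.3 CPM, a ratio of 0.729 (0.544 to 0.996). The intervals of the other 5 genes held 1. None of the 10 genes was at least 2-fold higher, against 9.45% of 10187 genes, and none was 2-fold lower, against 13.1%. TMM scaling raises every log2 ratio in this class by 0.28, which takes B2m past 2-fold (log2 ratio 1.02). The same shift brings Psmb8 (log2 ratio -0.304 before it) and Psmb9 (-0.469 before it) closer to no difference. The sum was 8003 CPM in PBS and 11070 CPM in NaIO3, a ratio of 1.38 (1.34 to 1.43).

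These cells were of different kinds in the libraries, so the class ratios mix kind with treatment. In PBS 71 of the 104 cells lay in cluster 13, led by class II genes and Pf4, and in NaIO3 271 of the 476 lay in cluster 5, led by Spp1 and C1q genes, and 167 in cluster 6, led by Lyz2 and Ms4a7. Within cluster 5 the sum had a ratio of 1.05 (0.983 to 1.12), with 18 PBS cells, and B2m one of 1.10 (1.01 to 1.20). Within cluster 6 the sum had a ratio of 1.38 (1.29 to 1.49), with 15 PBS cells, and within cluster 13 one of 1.59 (1.49 to 1.71), with 18 NaIO3 cells. In cluster 13 H2-D1 had a ratio of 1.89 (1.67 to 2.15) and Psmb8 one of 1.38 (0.955 to 1.96), the reverse of its direction over the class. The dividing cluster 31 held 20 NaIO3 cells. Class II genes lead cluster 13, so their class values describe its clusters, and 6 of 6 measured genes were at least 2-fold lower in NaIO3, such as Cd74 at 0.0473 of its PBS level. Of 16 measured signalling genes 5 were 2-fold lower and none higher, where 13.1% of all genes were lower and 9.45% higher, among them the interferon gamma receptor chain Ifngr1 (0.324) and Socs3 (0.349) and the transcription factor Irf2 (0.425).

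Of the 4 classes compared, the endothelial-like cells had the summed ratio closest to 1. In endothelial-like cells H2-K1 stood at 629 CPM in PBS (534 to 736) and 629 CPM in NaIO3 (504 to 776), H2-D1 at 1593 and 1613 CPM, and B2m at 1956 and 2112 CPM. The interval of the ratio held 1 for each of the 7 genes with at least 20 counts, and the sum had a ratio of 1.01 (0.917 to 1.11). None of the 7 was at least 2-fold higher, against 3.5% of 2227 genes, and none 2-fold lower, against 6.02%. TMM scaling lowers every log2 ratio in this class by 0.13. The NaIO3 library had 13 of these cells and so few counts that a ratio such as that of Tapbp (0.658, 0.297 to 1.35) is not distinguishable from 1. Tap1 had 7 UMIs in PBS and 8 in NaIO3, so that its ratio was 2.05 (0.650 to 6.64). In mural-like cells of the PBS library, the pericytes and smooth muscle around the vessels, the sum was 766 CPM (662 to 880) and H2-D1 152 CPM (108 to 207). Tap1 had 0 UMIs there, which allows up to 11.7 CPM. The NaIO3 library had 2 mural-like cells and was not compared.

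Across the 18 class and library groups of at least 10 cells, the summed level was lowest in PBS rod-like cells (243 CPM) and highest in NaIO3 macrophage-like cells (11070 CPM). Neighbours in that order overlapped within counting error for PBS rod-like and cone-like cells, for PBS RPE-like and mural-like cells, for PBS mural-like and NaIO3 rod-like cells, for PBS fibroblast-like and surface epithelium-like cells, for the endothelial-like cells of the libraries, and for PBS macrophage-like and NaIO3 dendritic-like cells, while PBS and NaIO3 RPE-like cells lay 3 places apart. Dendritic-like cells, which are led by class II genes, stood at 3033 CPM in PBS (47 cells) and 8167 CPM in NaIO3 (27 cells). NaIO3 Müller glia-like cells stood at 3451 CPM (45 cells), above the surface epithelium-like cells. The Pearson correlation of each gene's log2(CPM + 1) with the mean standardised level of the other 9 over these groups was highest for H2-D1 (0.97) and lowest for Nlrc5 (0.66), and groups of 1 library share that library's free RNA and depth. The genes whose pattern over the 18 groups was most like that of the 10, out of 11547, were Arl4c (0.96), Eif4a1 (0.94), Arpc5 (0.94), Tagln2 (0.93), Lgals9 (0.93), Lyn (0.93), Tnfaip8 (0.92) and Cdc42 (0.92).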

How the data were processed

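The authors deposited raw UMI counts per gene and barcode, made with Cell Ranger 3.0.2 on mm10 per the submitters' processing notes. Strand and multiple matches in counting are not stated there. Barcodes below 500 genes or above 25% mitochondrial UMIs were left out, and so were the highest Scrublet scores (169 in PBS, 132 in NaIO3), since its automatic threshold marked 0 and 2. Both libraries were clustered together (scanpy 1.11.5, 2000 variable genes without the 10 genes, 30 components, 15 neighbours, Leiden resolution 1). A cluster took a class name from a mean log2 fold of at least 1 over that class's markers, with at least 3 markers at 2-fold, unless another class led it. After the clusters were seen, names were also refused where a second class gave 2 or more leading genes, and for retinal classes with no marker among the 10 leading genes.

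Counts were summed per class and library. Levels carry exact Poisson, ratios exact conditional binomial and shares exact Clopper-Pearson 95% intervals, and a count of 0 a limit of 3 counts. Log2 ratios in lists used a pseudocount of 0.5, and the ratio with its interval was checked on simulated counts. edgeR 4.0.16 supplied TMM factors only, with no test. All 10 genes are named, with the members of other lists past 2-fold, up to 3 per direction. The members and lists were chosen with earlier results of these data known. One gene of the signalling list is not reported here.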

Additional observations from a re-analysis of the deposited data

Results flagged for a closer look

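Psmb8 and Psmb9 had opposite directions in different cell classes under the same contrast, which was not tested since each treatment has 1 library. Psmb8 stood 7.29 times higher in NaIO3 RPE-like cells and at 0.580 of its PBS level in surface epithelium-like cells and 0.812 in macrophage-like cells. Psmb9 stood 6.33 times higher in RPE-like cells and at 0.729 of its PBS level in macrophage-like cells. The lower levels did not hold within every cluster. Psmb8 had a ratio of 0.517 in surface epithelium-like cluster 3 and 3.07 in cluster 7. In macrophage-like clusters 5, 6 and 13 its ratios were 0.939, 0.617 and 1.38, and those of Psmb9 2.05, 0.523 and 0.976. Of these macrophage-like ratios, only that of Psmb8 in cluster 6 had an interval without 1. The level computed for free RNA covered 79.9% of Psmb8 and 51.6% of Psmb9 in NaIO3 RPE-like cells. In PBS RPE-like cells it came to 151% of Psmb8 and 67.4% of Psmb9, so Psmb8 had no ratio after that deduction. TMM scaling raises every log2 ratio in macrophage-like cells by 0.28. That shift brings Psmb8 (-0.304 before it) and Psmb9 (-0.469 before it) closer to no difference there.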

How the results depend on the processing

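No paired analysis was possible because each treatment has 1 library, and none could be left out. Values are log2 ratios of NaIO3 over PBS, and no cause of a change was tested. In RPE-like cells the summed genes stood at 0.73, and at 0.53 with TMM scaling, 0.68 in thinned cells, 0.22 with free RNA deducted by the library mean, 0.61 in the largest cluster of each library, 0.69 as a mean over cells, 0.78 with a mitochondrial limit of 10% and 0.64 without pigment-led clusters. In macrophage-like cells they stood at 0.47, and at 0.75 with TMM, 0.42 in thinned cells, 0.57 in the largest clusters and 0.42 with doublets kept. In surface epithelium-like cells they stood at 0.38, and at 0.22 with Leiden resolution 2, 0.46 in thinned cells, 0.048 with free RNA deducted, 0.0948 in the largest cluster, 0.53 as a mean over cells and 0.29 with the 10% limit. Comparisons within a cluster, chosen after the data were seen, gave 0.67 in cluster 13, 0.0709 in cluster 5, 0.0948 in cluster 3 and 0.92 in cluster 7.

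Some directions turned. B2m in RPE-like cells went to -0.0364 with free RNA deducted, and Psmb10 to -0.0006 with TMM and -0.0527 in the largest clusters. H2-D1 in surface epithelium-like cells went to -0.15 with resolution 2, -0.0976 in cluster 3, which is also the largest, -0.18 with free RNA deducted, -0.0119 with the 10% limit and -0.0118 with doublets kept. Psmb8 went to 0.47 in cluster 13 and 1.49 in cluster 7, and Psmb9 to 0.0081 in cluster 13 and 0.81 in cluster 5. In RPE-like cells H2-K1 and Tap1 stayed past 2-fold in 15 of 15 alternatives, and H2-D1, Psmb8 and Psmb9 in 14 of 14. For these last 3, the deduction by the share of the library mean left less than 0 in PBS and gave no ratio. Tap2 passed 2-fold in 2 of 15. In surface epithelium-like cells B2m passed it in 10 of 14, Tap1 in 9 and H2-K1 in 6, and in macrophage-like cells Tap1 in 3 of 15. The alternatives in these tallies are not all separate checks. The alternative that left genes with few counts out of the sum repeats the main value of every single gene by construction. For surface epithelium-like cells, cluster 3 entered as the largest cluster and again as a comparison within a cluster.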
